A study of Mus musculus with 10 samples.

Results

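Axon guidance genes encode the secreted and membrane-bound ligands, and the receptors for them, that steer the tips of growing nerve fibres. The members were found by gene symbol: semaphorins of classes 3 to 7, plexins, neuropilins, Eph receptors, ephrins, Slit and Robo genes, netrins and Unc5 genes. Of the 36172 deposited genes 68 met this rule, which holds no measured value. The rule itself was chosen with earlier results of these data known. They were 20 semaphorins, 11 plexins and neuropilins, 14 Eph receptors, 8 ephrins, 7 Slit and Robo genes and 8 netrin and Unc5 genes.

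The 4 systems share a plan in which a ligand on one cell turns a receptor on its neighbour towards attraction or repulsion by rebuilding the actin skeleton. Secreted class 3 semaphorins are held by neuropilins and signal through plexins of the A class, while membrane-bound semaphorins bind plexins directly. Ephrins of the A class are tied to the membrane by a lipid anchor and those of the B class span it, and both bind Eph receptor kinases on adjoining cells. Slits bind Robo receptors, and netrins bind Dcc and Unc5 receptors. Outside the nervous system the same genes act in blood vessel growth, in the shaping of the heart, and in the movement and contacts of white blood cells.

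The cells came from explants of the left atrial appendage of adult C57BL/6 mice (8 to 12 weeks), digested with trypsin and 0.1% collagenase D in 3 rounds of 5 min, and RNA sequencing was done on 5 sorted cell types with 2 libraries each. Type A was a primary culture after strong digestion (0.25% trypsin) with the surface markers c-kit+/CD45-, and type B a primary culture after weak digestion (0.05% trypsin) with c-kit+/CD45+, where c-kit is a stem cell receptor and CD45 the common surface protein of white blood cells. C1 (passage 6, c-kit+/CD45-), C2 (passage 8, c-kit-/CD45-) and C3 (passage 10, c-kit-/CD45-) were grown on from type B, and the study followed their change into other cell types. No label states that both libraries of a type were separate animals or cultures, so p-values describe the spread between these samples only, which may be technical. Digestion, sort and cell type changed together between A and B, and passage and surface markers changed together along C1 to C3, so none of these can be told apart.

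The deposited values were log2 values with the median of each gene over the 10 libraries set at 0, called centred log2 values below. They were read as read counts divided by a size factor, with values under 1 raised to a floor of 1 normalized read. The sources used here do not state this. Of the 68 members 3 were listed at 0 in every library and have no level. The level could be set for 35 others, for 14 because at least 2 libraries shared the lowest value and for 21 from the regular spacing of the values. In a check on 300 genes of known level that second way set 98, of which 90 were right and 7 were off by a factor of 2. For the other 30 members centred values alone are known. On the same reading 1 read was worth between 0.199 normalized reads in the deepest library, of C3, and 2.29 in the shallowest, of B, and the limit that a count of 0 allows (3 reads) lay between 1 and 6.88 normalized reads. The total number of reads was not used here, and these limits cover counting error only.

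Several libraries differed in ways that touch the members. Of the fractional values 42.3% and 45.9% lay on steps of 1/60 read in the A libraries, where 6% would by chance. In the other 8 libraries 48.3% to 61.7% lay on steps of 1/51 read. The sources used here do not explain this. Comparisons with A also cross this difference, which cannot be told apart from the cell type. The summed level of 7 macrophage markers of known level was 54.8 and 1251 normalized reads in A, against 63767 and 61411 in B and 14.5 to 26.1 in the cultures. Libraries of A differed by more than 1 on the log2 scale in 27 of 57 tested members, against 3 to 8 in the other types. Ddx3y, a gene of the Y chromosome, stood at 618 and 353 normalized reads in A, 555 and 414 in B, 1344 and 1247 in C1 and 57.2 and 86.2 in C2, and at the floor in both C3 libraries, although all 3 cultures are labelled as grown from B. Fibroblast markers of known level (3 genes) summed to 9460 and 6653 in A and 127 and 32.5 in C3, and mesothelial ones (6 genes) to 61.5 and 181 in A, 1045 and 1014 in B and, at its highest, 14513 and 15707 in C3. Of 10 neuron markers 4 (Snap25, Rbfox3, Stmn2 and Elavl4) were listed at 0 in every library. The 4 of known level summed to at most 95.8, in A replicate 2, and to 37.7 and 23.7 in C2, where Syt1 rose, and Tubb3, of unknown level, was called in 5 of the 6 comparisons. In such bulk samples fewer cells of a type and less RNA per cell cannot be told apart, and the part of these differences in the results on the members was not tested.

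A filter on low values (10 normalized reads in at least 2 libraries) left 57 of the 68 members. Epha10, Epha6 and Sema5b were the 3 listed at 0 everywhere, and 8 lay below the filter: Epha5, Epha8, Ephb1, Ntn5, Robo3, Sema3g, Unc5c and Unc5d. Of these 8, Unc5c, a netrin receptor, had 38.7 and 5.65 normalized reads in the A libraries, and Robo3, a receptor of nerve fibres that cross the midline, had 6.48 and 46.1 in C3. The other 6 did not exceed 2.29 in any library. Exons of 13 members overlap those of another annotated gene, by 34 to 970 bases, among them Plxnc1, Plxnb1, Nrp1, Efna4, Ntn3 and Unc5a below. The library kit does not mark strand, so reads from such stretches cannot be assigned with certainty. Tests were made with limma over all 14254 genes that passed the filter, adjusted by the Benjamini-Hochberg method in each of 6 comparisons. In a comparison, the words rose and fell mark an adjusted p under 0.05 together with a log2 difference of 1 or more. A value with ± is the log2 difference between both types and its standard error, from 2 libraries a type. No difference is given where the mean of the lower type did not pass the 3-read limit.

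Between the primary types most of the members that changed were lower in B. Of 57 tested members 9 rose from A to B (15.8%, where 14.5% of all tested genes rose) and 23 fell (40.4%, against 12.4%). The 9 included the plexin Plxnc1, both neuropilins, Slit1 and the class 4 semaphorins Sema4a and Sema4d, and the 23 included 5 Eph receptors, 4 ephrins and 7 semaphorins. The median difference of the members was -0.95, and that of all tested genes was 0.01. The counts were 9 and 22 without A replicate 1, and 15 and 22 without A replicate 2.

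Between type B and C1, the culture labelled as grown from it, the members split between rises and falls. From B to C1 13 rose (22.8%, against 12.6% of all genes) and 16 fell (28.1%, against 21.1%), with a median of -0.03 against -0.07. Among the rises were 4 secreted semaphorins, Sema3a, Sema3c, Sema3e and Sema3f, and the falls held 8 of the 9 members that had been higher in B than in A. Between C1 and A, which share the surface markers c-kit+/CD45-, 9 members were higher in C1 (15.8%, against 10.1%) and 20 lower (35.1%, against 16.6%), with a median of -0.45 against -0.04. Without A replicate 1 these counts were 9 and 29, and without A replicate 2 they were 12 and 21. A fit on the 4 libraries of A and C1 alone left 2 and 15. Quantile normalization moved 71 of the 173 called differences of the members by over 1.5 times, 43 of them away from 0 and ended 14 calls. Its value is given beside the printed differences whose call it ended or which it brought over 1.5 times nearer to 0. A fit on the compared types alone ended 28 of the 173 calls, and its p is given in the same way.

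Along the cultures more members rose than fell into C2, and more fell than rose into C3. From C1 to C2 18 rose (31.6%, against 12.2%) and 6 fell (10.5%, against 8.18%), with a median of 0.65 against 0.00. From C2 to C3 6 rose (10.5%, against 11.6%) and 24 fell (42.1%, against 16.2%), with a median of -1.01 against 0.00. In total 13 members rose into C2 and fell again into C3 (22.8%, against 4.60% of all genes). Without C2 replicate 1 there were 7, without C1 replicate 2 there were 9, and without any other single library 12 to 14. They were Efna4, Efnb1, Efnb2, Epha3, Ephb4, Ntn3, Plxna3, Plxnb1, Sema4c, Sema4g, Sema6c, Sema6d and Slit2, and so came from every family. Fibroblast markers took a similar course. Of 10 tested 5 rose and 2 fell from C1 to C2, and all 10 fell from C2 to C3. From A to B 6 of these 10 markers fell and none rose. Their part in the counts of members was not tested. From C1 to C3 13 were higher (22.8%, against 17.1%) and 16 lower (28.1%, against 17.7%), with a median of 0.00 for the members and for all genes. Counted in either direction, 32 members differed in B minus A (26.9% of all genes did), 29 in C1 minus B (33.7%), 29 in C1 minus A (26.6%), 24 in C2 minus C1 (20.4%), 30 in C3 minus C2 (27.9%) and 29 in C3 minus C1 (34.8%). The comparisons share libraries and their counts are not independent of each other.

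**Figure D1:**
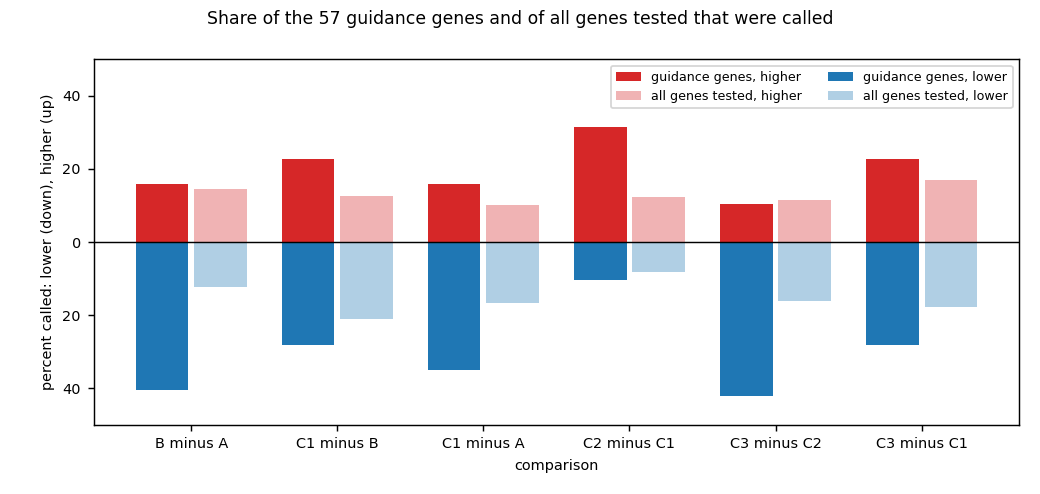
Share of the 57 tested guidance genes (dark bars) and of all 14254 tested genes (pale bars) called higher (upwards) or lower (downwards) in each of the 6 comparisons, in percent. The dark bars exceed the pale ones most for lower genes in B minus A (40.4% against 12.4%) and C3 minus C2 (42.1% against 16.2%) and for higher genes in C2 minus C1 (31.6% against 12.2%).

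Counted by the type with the highest mean, 16 of the 57 members were highest in C2, 12 in A, 12 in B, 9 in C3 and 8 in C1, and 21 were lowest in C3. In all, 52 of 57 members were called in at least 1 of the 6 comparisons (91.2%, against 65.0% of all genes). The exceptions were Efna1, Efna3, Epha1, Plxna1 and Plxnb2. Plxnb2, a receptor of class 4 semaphorins, was the steadiest, with centred log2 values between -0.22 and 0.23 in the 10 libraries.

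**Figure D2:**
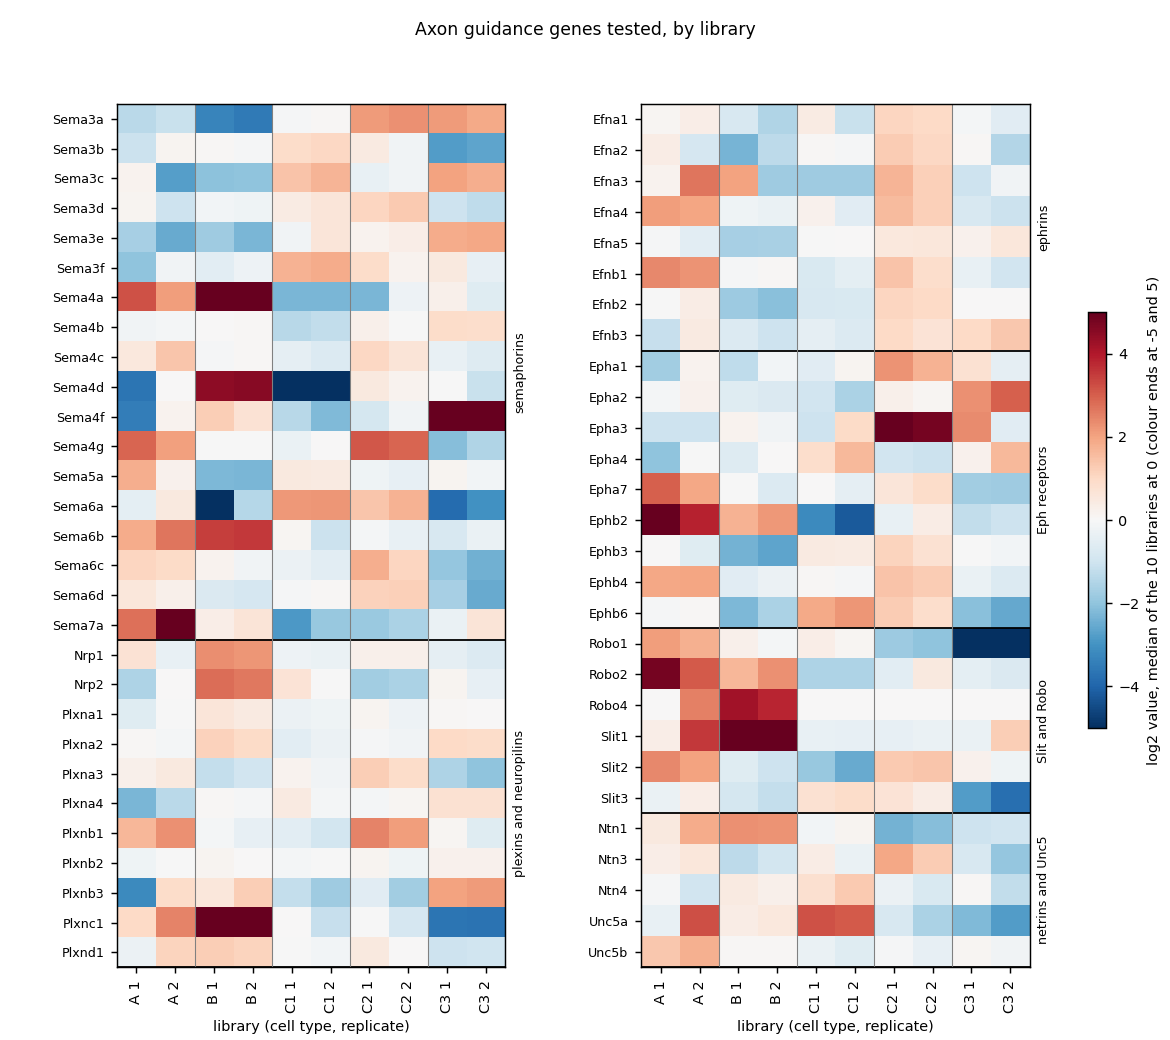
Centred log2 value (median of the 10 libraries at 0) of the 57 tested guidance genes, one row a gene and one column a library, with black lines between families. Blocks of red in both B columns mark Plxnc1, Sema4d, Sema4a, Slit1 and Robo4, and Sema4f is dark red in both C3 columns alone.

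Among the ligands, 2 class 4 semaphorins stood out in B. Sema4d (chromosome 13, 51685529 to 51793678, build GRCm38), a membrane ligand of white blood cells that binds Plxnb1, had 1426 and 1489 normalized reads in the B libraries. Its values were 5.04 and 65.1 in A, 2.02 and 1.34 for C1, 89.6 and 73 for C2 and 62.8 and 29.6 for C3. Every B library lay above every other library, and both C1 libraries lay below all others. Sema4d rose from A to B with 6.33 ± 1.05 (limma adjusted p = 0.00354), which became 4.48 without A replicate 1 and 8.18 without A replicate 2, and lost its call in a fit on A and B alone (limma adjusted p = 0.0632). Under quantile normalization it was 4.15. Its fall into C1 (limma adjusted p = 0.000405) and its return in C2 (limma adjusted p = 0.00742) started from or ended at C1 values at or under 3 reads. Sema4a (chromosome 3, 88435959 to 88461182), a membrane ligand of T cells and dendritic cells, had 44.6 and 21.1 normalized reads in A and 184 and 173 in B, and in culture 1.01 and 1 in C1, 1 and 4.14 in C2 and lastly 5.81 and 3.21 in C3. The B libraries again exceeded all others, the A libraries came next and every culture lay near the floor. Its fall from B to C1 was called (limma adjusted p = 0.000188), as was its lower level in C1 than in A (limma adjusted p = 0.00171). The rise from A to B, 2.54 ± 0.67 (limma adjusted p = 0.0224), lost its call without A replicate 2, B replicate 1 or B replicate 2 (limma adjusted p = 0.0876 to 0.0959), and quantile normalization set it to 0.00.

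**Figure D3:**
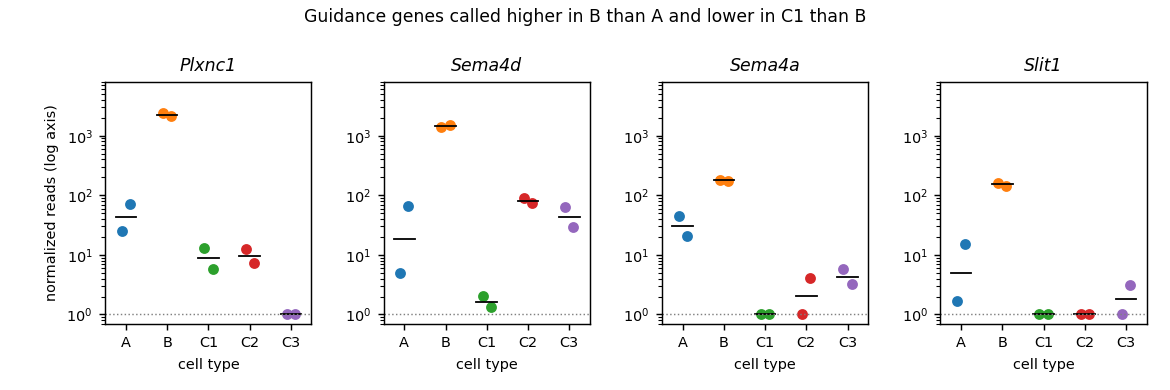
Normalized reads (log axis) of 4 guidance genes in the 2 libraries of each cell type; dots are libraries, black bars their geometric mean and the dotted line the floor of 1 normalized read. In each gene both B dots lie above all other dots, at 144 to 2402 normalized reads.

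Sema7a (chromosome 9, 57939596 to 57962865), a lipid-anchored semaphorin that binds Plxnc1 and integrins, was a gene of type A. It had 149 and 1182 normalized reads for A, 27.5 and 34.4 for B, 3.02 and 5.94 for C1, 6.12 and 7.25 for C2 and 17.4 and 34.7 for C3. The A libraries lay above all others but differed from each other by almost 3 on the log2 scale. C1 minus A was -6.63 ± 0.90 (limma adjusted p = 0.00168), and this became -8.12 without A replicate 1 and -5.13 without A replicate 2. The fall from A to B, -3.77 ± 0.90 (limma adjusted p = 0.0149), was -5.26 without A replicate 1 and -2.27 without A replicate 2. It was not called without B replicate 1 or B replicate 2 (limma adjusted p = 0.0769 and 0.0615) or in a fit on A and B alone (limma adjusted p = 0.108). Sema4g (chromosome 19, 44988743 to 45003397), a membrane semaphorin whose level is unknown, had centred log2 values of 2.90 and 2.05 in A, 0.00 and -0.01 in B, then -0.35 and 0.00 in C1, 3.10 and 2.93 in C2 and finally -2.15 and -1.50 in C3. It was high in A and C2 and lowest in C3, with no overlap between these and the rest. The differences were -2.48 ± 0.33 (limma adjusted p = 0.00136) for B minus A, 3.19 ± 0.33 (limma adjusted p = 0.000767) for C2 minus C1 and -4.84 ± 0.33 (limma adjusted p = 0.000112) for C3 minus C2.

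In C3 the largest rise of a member was that of Sema4f (chromosome 6, 82911884 to 82939769), a membrane semaphorin found at nerve cell contacts. Its values were 1.68 and 20.9 normalized reads in A and 43.4 and 30.8 in B, and in culture 7.05 and 4.01 in C1, 10.2 and 16.4 in C2 and lastly 805 and 1154 in C3. No library of another type exceeded 43.4 normalized reads, and the C3 values rest on 3106 and 5810 reads. C3 minus C2 was 6.22 ± 1.04 (limma adjusted p = 0.00338) and C3 minus C1 7.50 ± 1.04 (limma adjusted p = 0.00105). Sema6a (chromosome 18, 47245254 to 47371200), a membrane ligand of Plxna2 and Plxna4, went the other way. It had 23.8 and 47.8 normalized reads for A, 1 and 12.7 for B, 150.0 and 154 for C1, 87.7 and 112 for C2 and 2.33 and 4.17 for C3. C1 and C2 did not overlap with any other type, and B replicate 1 was at the floor. C3 minus C1 was -5.61 ± 1.05 (limma adjusted p = 0.00405), and the rise from B to C1 was called from B values at or under the limit on average (limma adjusted p = 0.00493).

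Of the 6 tested class 3 semaphorins, which are secreted, 4 rose from B to C1, where 12.6% of all genes rose, and none fell, where 21.1% did. Sema3a (chromosome 5, 13124822 to 13603485), which repels nerve fibres through Nrp1, had 106 and 125 normalized reads in A, 27.5 and 23.5 in B, then 257 and 284 in C1, 1176 and 1314 in C2 and finally 1185 and 1006 in C3. The order B, A, C1 and then C2 with C3 held without overlap, while C2 and C3 overlapped. Sema3a fell from A to B with -2.17 ± 0.17 (limma adjusted p = 0.000178), rose from B to C1 with 3.41 ± 0.17 (limma adjusted p = 1.69e-05) and rose again from C1 to C2 with 2.20 ± 0.17 (limma adjusted p = 0.000257). Of the others, Sema3e, a ligand of Plxnd1, rose from B to C1 (2.23 ± 0.36) and was higher in C3 than in C1 (1.68 ± 0.36). Sema3c, which is needed for the outflow tract of the heart, rose from B to C1 (3.60 ± 0.80). Sema3f, the ligand of Nrp2, rose from B to C1 (2.16 ± 0.60), a call lost without any 1 library of B or C1 (limma adjusted p = 0.0704 to 0.0978). Sema3b and Sema3d fell from C2 to C3 (-2.88 ± 0.39 and -2.34 ± 0.35), Sema3b by -1.99 under quantile normalization. The membrane-bound Sema6c rose from C1 to C2 (1.85 ± 0.29), and both it and Sema6d fell from C2 to C3 (-3.62 ± 0.29 and -3.26 ± 0.27). Sema4b rose from C1 to C2 (1.42 ± 0.14) and stayed higher in C3 than in C1 (2.20 ± 0.14). Sema6b was higher in A and B than in C1, with -2.77 ± 0.43 for C1 minus A and -3.98 ± 0.43 for C1 minus B. Without C1 replicate 2 these were -2.18 and -3.39, and without C1 replicate 1 they were -3.36 and -4.57. The first lost its call in a fit on A and C1 alone (limma adjusted p = 0.0561), and quantile normalization set the second to -2.34. Sema5a, a large membrane semaphorin, rose from B to C1 (2.74 ± 0.45). It was lower in B than in A (-3.27 ± 0.45), by -2.47 without A replicate 1 and by -4.07 without A replicate 2.

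**Figure D4:**
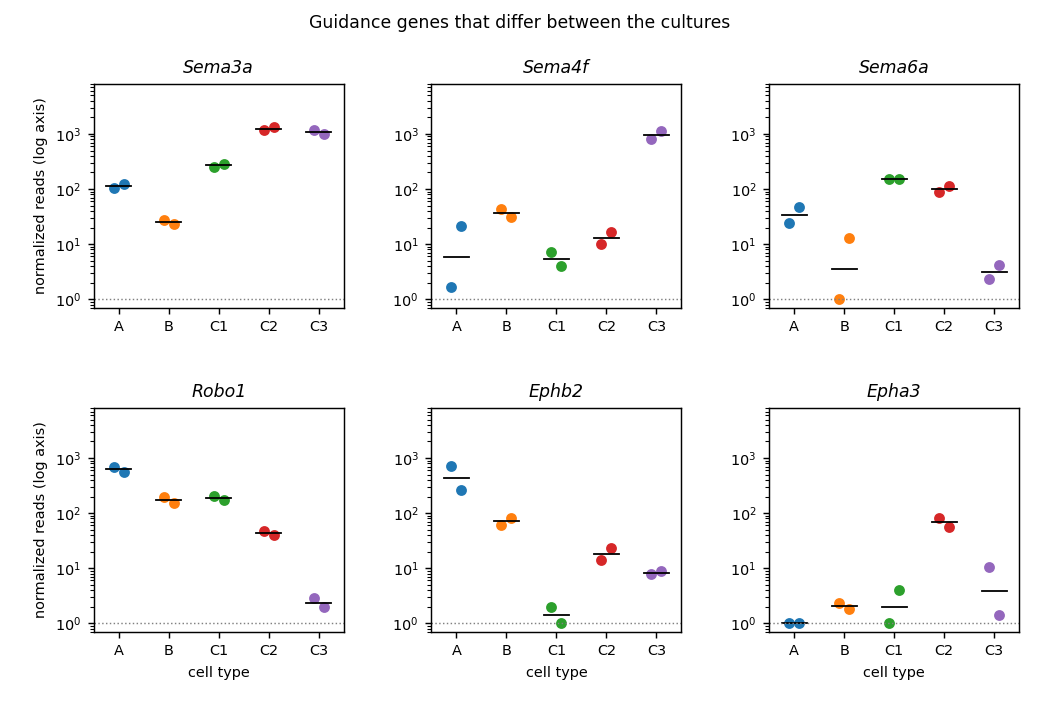
Normalized reads (log axis) of 6 guidance genes in the 2 libraries of each cell type; dots are libraries, black bars their geometric mean and the dotted line the floor of 1 normalized read. Sema4f is high in C3 alone (805 and 1154 normalized reads), Robo1 drops from A to C3, and Epha3 is high in C2.

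Among the receptors of semaphorins Plxnc1 (chromosome 10, 94790866 to 94945015), the plexin that binds Sema7a, showed the largest fall from B to C1. It had 25.6 and 71.2 normalized reads in A and 2402 and 2127 in B, and in culture 13.1 and 5.8 in C1, 12.8 and 7.25 in C2 and lastly 1.04 and 1 in C3. Both B libraries lay far above all others, A was second, and C3 was at or near the floor, which limits how far its fall into C3 can be measured. Plxnc1 rose from A to B with 5.73 ± 0.57 (limma adjusted p = 0.00045), fell into C1 with -8.02 ± 0.57 (limma adjusted p = 7.27e-05) and fell from C2 to C3 by a difference of -3.24 ± 0.57 (limma adjusted p = 0.00396). The first of these became 4.99 without A replicate 1, 6.46 without A replicate 2 and 2.21 under quantile normalization, and the second -8.61 without C1 replicate 1, -7.43 without C1 replicate 2 and -4.28 under quantile normalization. Under quantile normalization the third was -1.80. Per kb of exon, Plxnc1 at 310.1 and Sema4d at 308 normalized reads were the highest of the 27 tested members of known level in B, followed by Efnb1 at 87.2. The macrophage markers fell together with both, since all 10 rose from A to B and all 10 fell from B to C1. From B to C1 6 of 7 tested endothelial and 5 of 6 Schwann cell markers also fell, with none rising. From A to B 6 of 9 mesothelial and 3 of 6 Schwann cell markers rose, while 6 of 10 fibroblast markers fell. The part of any of these cell types in the results on Plxnc1 and Sema4d was not tested.

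Nrp1 (chromosome 8, 128358591 to 128505476) and Nrp2 (chromosome 1, 62703317 to 62818692) hold class 3 semaphorins and vascular growth factors, and both were highest in B. The centred log2 values of Nrp1 were 0.72 and -0.38 for A, 2.32 and 2.23 for B, -0.25 and -0.32 for C1, 0.25 and 0.27 for C2 and -0.46 and -0.67 for C3. Those of Nrp2 were -1.55 and 0.04 in A, 2.81 and 2.62 in B, then 0.68 and -0.04 in C1, -1.74 and -1.58 in C2 and finally 0.13 and -0.43 in C3. The B libraries exceeded all others for both genes, and C2 was lowest for Nrp2. Nrp1 rose from A to B with 2.10 ± 0.32 (limma adjusted p = 0.00257) and fell into C1 with -2.56 ± 0.32 (limma adjusted p = 0.000779). A fit on A and B alone ended the first call (limma adjusted p = 0.0575), and under quantile normalization the values were 1.25 and -1.64. Nrp2 rose from A to B with 3.47 ± 0.51 (limma adjusted p = 0.0021), with 2.68 without A replicate 1, 4.27 without A replicate 2 and 2.40 under quantile normalization. It fell into C1 with -2.39 ± 0.51 (limma adjusted p = 0.00718), a call that quantile normalization ended (-1.11, limma adjusted p = 0.143). Plxna2, a partner of the neuropilins, fell from B to C1 (-1.46 ± 0.15) and rose again from C2 to C3 (1.07 ± 0.15). Its rise from A to B (1.06 ± 0.15) was under the limit of 1 for a call without A replicate 2 or B replicate 1 (0.98 each time) and under quantile normalization (0.77).

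The stretches before the starts of the members were read for GAGGAA, a core that the macrophage factor PU.1 binds. Of the members 8 rose from A to B and fell from B to C1 (14%), which is near the share over all genes (10.2%). In fits on the compared types alone there were 4. Without B replicate 1 there were 5, and 3 under quantile normalization. Of the 8, 7 have promoters in the RefSeq table (build GRCm38.p6), and Slit1 is named only. In the 250 bases before each start, on either strand, 5 of their 12 promoters held a match, in 4 genes. These were Nrp1, Plxnc1, Robo4 and Sema4a, and some of the Sema4a promoters held none. No promoter of Sema4d, Nrp2 or Plxna2 held a match. Of all promoters listed there 23.3% held one, and over the 75 promoters of 59 members 28.0% did, which is 21 promoters. A gene can have several starts, and some of these windows lie within the span of the gene. Printed are 2 windows outside it that hold no exon of the GENCODE M21 basic annotation: that of Sema4a farthest upstream, as a gene high in B, and that of Sema4f, a gene high in C3. They read 5′ to 3′ on the strand of the gene, and capitals mark GAGGAA or its reverse complement TTCCTC.
Sema4a, chr3:88461183-88461432 (minus strand): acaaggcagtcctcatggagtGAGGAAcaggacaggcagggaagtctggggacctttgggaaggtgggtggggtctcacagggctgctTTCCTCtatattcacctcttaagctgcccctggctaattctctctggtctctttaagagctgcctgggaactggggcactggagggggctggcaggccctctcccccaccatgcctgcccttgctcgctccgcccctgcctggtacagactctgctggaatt
Sema4f, chr6:82939770-82940019 (minus strand): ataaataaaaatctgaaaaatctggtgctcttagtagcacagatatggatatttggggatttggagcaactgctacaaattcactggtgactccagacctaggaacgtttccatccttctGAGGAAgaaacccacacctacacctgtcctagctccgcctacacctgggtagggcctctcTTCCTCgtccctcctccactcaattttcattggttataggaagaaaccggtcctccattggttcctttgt
Both windows hold 2 matches. A match describes the letters only and was not tested as a binding site.

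The B class plexins followed other courses. Plxnb1 (chromosome 9, 109093849 to 109119915), the receptor of Sema4d, had centred log2 values of 1.66 and 2.27 in A and -0.11 and -0.43 in B, and in culture -0.54 and -0.90 in C1, 2.46 and 2.11 in C2 and lastly 0.11 and -0.61 in C3. It was high in A and C2, whose values overlapped, and low in the other types. Plxnb1 was thus low in B, where its ligand Sema4d was highest, with -2.23 ± 0.32 (limma adjusted p = 0.00194) for B minus A, 3.0 ± 0.32 (limma adjusted p = 0.000887) for C2 minus C1 and -2.54 ± 0.32 (limma adjusted p = 0.00112) for C3 minus C2. Plxna3 (chromosome X, 74328290 to 74344689), which signals for Sema3f with Nrp2, had centred log2 values of 0.26 and 0.49 for A, -1.18 and -0.98 for B, 0.16 and -0.16 for C1, 1.21 and 0.92 for C2 and -1.56 and -2.02 for C3. B and C3 were the low types, and C2 the high one. It fell from A to B with -1.45 ± 0.22 (limma adjusted p = 0.00231) and from C2 to C3 by a difference of -2.85 ± 0.22 (limma adjusted p = 0.000179). Plxnb3 (chromosome X, 73756556 to 73772510), the receptor of Sema5a, was expressed at a low level. Its values were 1 and 17.4 normalized reads in A, 13.8 and 21.7 in B, then 4.03 and 2.67 in C1, 6.12 and 2.74 in C2 and finally 37.2 and 40.5 in C3, highest in both C3 libraries. C3 minus C1 was 3.56 ± 1.18 (limma adjusted p = 0.0392), a call lost when any 1 library of B, C1, C2 or C3 was left out (limma adjusted p = 0.0574 to 0.147). Plxna4, a receptor of Sema6a and of neuropilin complexes, was lower in A than in B (1.82 ± 0.32 for B minus A) and in C1 (1.99 ± 0.32 for C1 minus A). Fits on the compared types alone ended both calls (limma adjusted p = 0.0602 and, for C1 minus A, limma adjusted p = 0.0633). Plxnd1, the receptor of Sema3e, fell from B to C1 (-1.24 ± 0.42) and from C2 to C3 (-1.29 ± 0.42), calls that were lost without any 1 library of B, C1, C2 or C3 (limma adjusted p = 0.0577 to 0.183) or under quantile normalization (-0.89 with limma adjusted p = 0.111, and -1.04 with limma adjusted p = 0.0785).

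Ephrins changed in 1 direction between the primary types. In B minus A 4 of 8 fell (12.4% of all genes did) and none rose (14.5%), with Efnb1 and Efna4 showing the largest changes. From C1 to C2 3 of 8 rose, against 12.2% of all genes. Efnb1 (chromosome X, 99136061 to 99149022), a membrane-spanning ephrin, had 1502 and 1363 normalized reads in A and 270.0 and 298 in B, and in culture 169 and 200.2 in C1, 759 and 527 in C2 and lastly 218 and 145 in C3. A exceeded C2, and C2 exceeded the other 3 types. The differences were -2.33 ± 0.25 (limma adjusted p = 0.000674) for B minus A, 1.78 ± 0.25 (limma adjusted p = 0.00266) for C2 minus C1 and -1.83 ± 0.25 (limma adjusted p = 0.00162) for C3 minus C2. Efnb2 (chromosome 8, 8617235 to 8661242), the ephrin of arteries, had 808 and 1042 normalized reads for A, 233 and 193 for B, 465 and 479 for C1, 1729.7 and 1613 for C2 and 816 and 828 for C3. It was lowest in B and highest in C2, with no overlap. It fell from A to B with -2.11 ± 0.17 (limma adjusted p = 0.000209), then rose into C1 with 1.16 ± 0.17 (limma adjusted p = 0.00145) and into C2 with 1.82 ± 0.17 (limma adjusted p = 0.000533). The fall from C2 to C3, -1.02 ± 0.17 (limma adjusted p = 0.00317), shrank to -0.97 without C2 replicate 1, under the limit of 1 for a call. Per kb of exon Efnb1 was the highest of the 27 members of known level in A at 439.8 normalized reads, and Efnb2 the highest in C2 at 349.

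Of the lipid-anchored ephrins, Efna5 (chromosome 17, 62602957 to 62881317), a ligand of Epha3 and Epha7, had 243 and 177 normalized reads in A, 80.3 and 81.3 in B, then 249.8 and 255 in C1, 367 and 369 in C2 and finally 293 and 374 in C3. B was low and the other types lay between 177 and 374. It fell from A to B with -1.36 ± 0.19 (limma adjusted p = 0.0018) and rose from B to C1 with 1.64 ± 0.19 (limma adjusted p = 0.000553). Efna4 (chromosome 3, 89333393 to 89338028) had centred log2 values of 2.08 and 1.96 in A and -0.23 and -0.33 in B, and in culture 0.23 and -0.56 in C1, 1.56 and 1.2 in C2 and lastly -0.80 and -1.08 in C3. A and C2 were the high types. It fell from A to B with -2.30 ± 0.27 (limma adjusted p = 0.000924) and from C2 to C3 by a difference of -2.32 ± 0.27 (limma adjusted p = 0.000858). Efna2 (chromosome 10, 80179482 to 80190010) had 75.6 and 32.6 normalized reads for A, 11.5 and 23.5 for B, 60.6 and 56.1 for C1, 137 and 119 for C2 and 59.4 and 20.9 for C3, and was highest in C2. Its fall from C2 to C3, -1.86 ± 0.60 (limma adjusted p = 0.0425), lost its call without C3 replicate 2 or any 1 library of B, C1 or C2 (limma adjusted p = 0.0505 to 0.219), and in a fit on C2 and C3 alone (limma adjusted p = 0.0941). Efnb3 (chromosome 11, 69554092 to 69561150), the third membrane-spanning ephrin, had 5.04 and 15.3 normalized reads in A, 6.88 and 5.43 in B, then 8.06 and 6.94 in C1, 22.5 and 17.9 in C2 and finally 22 and 28 in C3. Its higher level in C3 than in C1, 1.73 ± 0.48 (limma adjusted p = 0.0195), lost its call without any 1 library of C1 or C3 (limma adjusted p = 0.0561 to 0.0970).

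**Figure D5:**
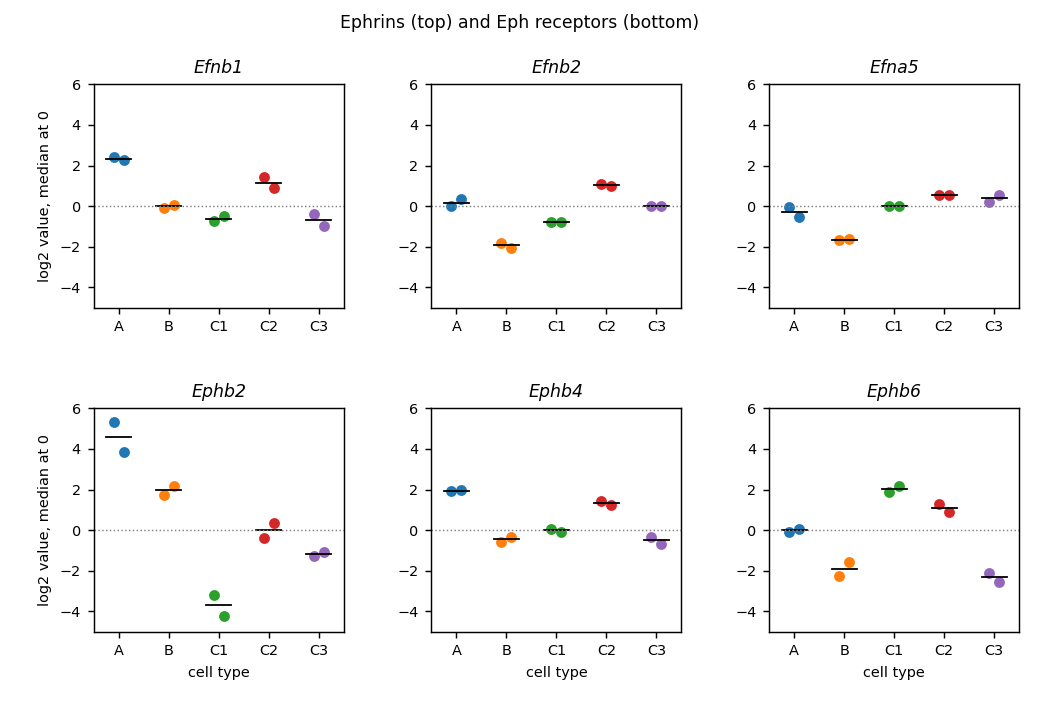
Centred log2 value (median of the 10 libraries at 0) of 3 ephrins (top) and 3 Eph receptors (bottom) in the 2 libraries of each cell type; dots are libraries and black bars their mean, on the same axis in all panels. Efnb1 and Ephb4 are both highest in A and second in C2, while Ephb2 spans the widest range, from 5.31 in A to -4.20 in C1.

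Of the 9 tested Eph receptors 5 fell from A to B, where 12.4% of all genes fell, and none rose, where 14.5% did. Ephb2 (chromosome 4, 136647536 to 136836326), a receptor of B class ephrins, had 730.4 and 266 normalized reads in A and 61.9 and 83.2 in B, and in culture 2.02 and 1 in C1, 14.3 and 23.7 in C2 and lastly 7.76 and 8.9 in C3. The types followed each other without overlap in the order A, B, C2, C3 and C1. Its falls from B to C1 (limma adjusted p = 0.000244) and from A to C1 (limma adjusted p = 0.000122) ended at or under 3 reads in C1, and it rose again in C2 (limma adjusted p = 0.00292). The fall from A to B, -2.62 ± 0.54 (limma adjusted p = 0.00855), was -1.89 without A replicate 1 and -3.35 without A replicate 2, and lost its call without B replicate 1 (limma adjusted p = 0.0553) or in a fit on A and B alone (limma adjusted p = 0.0647). Ephb6 (chromosome 6, 41603834 to 41620509), an Eph receptor that lacks kinase activity, had centred log2 values of -0.08 and 0.08 for A, -2.23 and -1.58 for B, 1.88 and 2.20 for C1, 1.28 and 0.90 for C2 and -2.10 and -2.55 for C3. It was high in C1 and C2 and low in B and C3, which overlapped. Ephb6 rose from B to C1 with 3.95 ± 0.28 (limma adjusted p = 7.27e-05) and fell from C2 to C3 by a difference of -3.41 ± 0.28 (limma adjusted p = 0.000228). Ephb3 (chromosome 16, 21204620 to 21223309) had centred log2 values of 0.02 and -0.60 in A, -2.37 and -2.64 in B, then 0.46 and 0.41 in C1, 1.11 and 0.78 in C2 and finally -0.02 and -0.12 in C3, so that B alone was low. Its differences were -2.21 ± 0.23 (limma adjusted p = 0.000566) for B minus A and 2.94 ± 0.23 (limma adjusted p = 0.000112) for C1 minus B. Ephb4, the receptor of Efnb2 in veins, shared the A and C2 peaks of Efnb1, with -2.39 ± 0.17 for B minus A, 1.34 ± 0.17 for C2 minus C1 and -1.84 ± 0.17 for C3 minus C2.

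Of the 5 tested A class receptors Epha1 was called in no comparison. Epha4 was higher in C1 than in A (2.25 ± 0.72, limma adjusted p = 0.0411) and fell from C1 to C2 (-2.25 ± 0.72, limma adjusted p = 0.048). The first was 1.25 without A replicate 1 and 3.24 without A replicate 2. A fit on A and C1 alone ended its call (limma adjusted p = 0.143). Both calls were lost in several fits that left out 1 library. Values of Epha4 in C1 (151 and 253 normalized reads) and C3 (95.7 and 254) overlapped. Epha3 (chromosome 16, 63543532 to 63864175), a receptor of Efna5, was at the floor in both A libraries and had 2.29 and 1.81 normalized reads in B, 1.01 and 3.95 for C1, 81.5 and 56.9 for C2 and 10.6 and 1.39 for C3. The C2 libraries lay above all others, and those of C3 differed from each other by almost 3 on the log2 scale. Its rise from C1 to C2 started at or under 3 reads on average (limma adjusted p = 0.00782). The fall from C2 to C3, -4.15 ± 0.97 (limma adjusted p = 0.0127), was -5.61 without C3 replicate 1 and -2.68 without C3 replicate 2, and was not called without C2 replicate 1 (limma adjusted p = 0.0691) or in a fit on C2 and C3 alone (limma adjusted p = 0.0717). Epha2 (chromosome 4, 141301221 to 141329384), a receptor of epithelia, had centred log2 values of -0.11 and 0.20 in A and -0.59 and -0.72 in B, and in culture -0.98 and -1.59 in C1, 0.25 and 0.11 in C2 and lastly 2.28 and 3.0 in C3. C3 was high and C1 low. It rose from C2 to C3 by a difference of 2.46 ± 0.29 (limma adjusted p = 0.000931). Mesothelial markers rose in the same step, 6 of 9 tested with none falling, and their part in the result was not tested. Epha7 (chromosome 4, 28813066 to 28967503), a receptor of A class ephrins, had 403 and 189.6 normalized reads for A, 50 and 31.1 for B, 50.4 and 36.7 for C1, 77.1 and 94.5 for C2 and 15 and 14.5 for C3. A exceeded all other types and C3 lay below them. It fell from A to B with -2.81 ± 0.39 (limma adjusted p = 0.00173) and from C2 to C3 by a difference of -2.54 ± 0.39 (limma adjusted p = 0.0024).

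Slit1 and its relatives moved apart. Slit1 (chromosome 19, 41597824 to 41747275), a secreted repellent, had 1.68 and 15.1 normalized reads in A, 164 and 144 in B, then 1.01 and 1 in C1, 1 and 1.04 in C2 and finally 1.04 and 3.1 in C3. Both B libraries lay far above the rest, and every C1 and C2 library was at or near the floor. It rose from A to B with 4.93 ± 0.96 (limma adjusted p = 0.00664), which was 3.34 without A replicate 1 and 6.51 without A replicate 2, and lost its call in a fit on A and B alone (limma adjusted p = 0.0744) and under quantile normalization (1.82, limma adjusted p = 0.137). Its fall into C1 was called (limma adjusted p = 0.000936). Slit2 (chromosome 5, 47981291 to 48307735) had centred log2 values of 2.41 and 2.03 in A and -0.62 and -1.05 in B, and in culture -1.91 and -2.53 in C1, 1.33 and 1.41 in C2 and lastly 0.21 and -0.21 in C3, high in A and C2 and lowest in C1. C1 minus A was -4.44 ± 0.28 (limma adjusted p = 9.73e-05) and C2 minus C1 3.59 ± 0.28 (limma adjusted p = 0.000282). Slit3 (chromosome 11, 35121456 to 35708507) had centred log2 values of -0.33 and 0.33 for A, -0.88 and -1.18 for B, 0.77 and 0.93 for C1, 0.69 and 0.38 for C2 and -2.79 and -3.78 for C3. C3 lay below every other type, with -3.82 ± 0.36 (limma adjusted p = 0.000385) for C3 minus C2 and -4.13 ± 0.36 (limma adjusted p = 0.00014) for C3 minus C1. Quantile normalization set these to -2.86 and -3.39.

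Robo1, Robo2 and Robo4 had their highest values in a primary type. Robo1 (chromosome 16, 72027518 to 73047491) had 690.5 and 559 normalized reads in A, 195 and 154 in B, then 207 and 175 in C1, 46.9 and 40.3 in C2 and finally 2.85 and 1.99 in C3. B and C1 overlapped, and A, C2 and C3 were each apart from every other type. Robo1 fell from A to B with -1.84 ± 0.23 (limma adjusted p = 0.00122), from C1 to C2 with -2.13 ± 0.23 (limma adjusted p = 0.000983) and from C2 to C3 by a difference of -4.19 ± 0.23 (limma adjusted p = 6.37e-05). Quantile normalization shrank the last to -1.91. Robo2 (chromosome 16, 73891976 to 75447443) had 81.5 and 24.4 normalized reads in A, 9.18 and 14.4 in B, 2.04 and 4.14 in C2 and 2.07 and 1.79 in C3, and was at the floor in both C1 libraries. It was highest in A, second in B and at most 4.14 in the cultures. Its falls into C1 from A (limma adjusted p = 0.000683) and from B (limma adjusted p = 0.00243) were called. Robo4 (chromosome 9, 37401902 to 37414023), the Robo receptor of blood vessel lining, had 1 and 5.75 normalized reads in A and 18.4 and 14.2 in B, with the floor reached in all 6 libraries of C1, C2 and C3. Its fall from B to C1 was called (limma adjusted p = 0.00296). Of 7 tested endothelial markers 2, Kdr and Vwf, rose from A to B with none falling, and 6 fell from B to C1. The summed level of 8 was 139 and 373 normalized reads in A, 787 and 781 in B and 20.3 to 58.7 in the cultures, and its part in the result on Robo4 was not tested.

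Of the 5 tested netrins and Unc5 receptors 2 fell from A to B (12.4% of all genes did) and none rose (14.5%). Ntn1 (chromosome 11, 68209364 to 68386826), the founding netrin, had centred log2 values of 0.48 and 1.87 in A and 2.30 and 2.25 in B, and in culture -0.15 and 0.15 in C1, -2.35 and -2.11 in C2 and lastly -1.03 and -0.95 in C3. It was highest in B and lowest in C2, with a fall from B to C1 of -2.27 ± 0.40 (limma adjusted p = 0.00332) and from C1 to C2 of -2.23 ± 0.40 (limma adjusted p = 0.00643). Under quantile normalization the first was -1.34. Ntn3 (chromosome 17, 24203831 to 24209387) had centred log2 values of 0.32 and 0.55 for A, -1.30 and -0.91 for B, 0.37 and -0.32 for C1, 1.92 and 1.26 for C2 and -0.81 and -1.94 for C3, highest in C2, and fell into C3 with -2.96 ± 0.43 (limma adjusted p = 0.00189). Its exons share 139 bases with BC028777 and 89 with Tbc1d24, and without strand these reads cannot be told apart. Ntn4 (chromosome 10, 93641049 to 93745972), a netrin of basement membranes, had 79.6 and 42.4 normalized reads in A, 113 and 97.7 in B, then 143 and 207 in C1, 67.8 and 48.8 in C2 and finally 86.1 and 35.7 in C3. C1 was highest, and C3 minus C1 was -1.64 ± 0.48 (limma adjusted p = 0.0248), which lost its call without either C1 library or without C3 replicate 2 (limma adjusted p = 0.0505 to 0.128), and in a fit on C1 and C3 alone (limma adjusted p = 0.095).

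Unc5a (chromosome 13, 54945151 to 55006018), a repulsive netrin receptor, had centred log2 values of -0.35 and 3.22 in A and 0.35 and 0.54 in B, and in culture 3.17 and 3.06 in C1, -0.80 and -1.58 in C2 and lastly -2.19 and -2.80 in C3. Both C1 libraries and A replicate 2 were high, and A replicate 1 was not. It was lower in C3 than in C1 with -5.61 ± 1.00 (limma adjusted p = 0.00324). The fall from C1 to C2, -4.31 ± 1.00 (limma adjusted p = 0.0165), lost its call without any 1 library of C1 or C2 (limma adjusted p = 0.0570 to 0.0813). Unc5b (chromosome 10, 60762594 to 60831581), the netrin receptor of vessels, had centred log2 values of 1.33 and 1.77 for A, 0.05 and 0.06 for B, -0.33 and -0.61 for C1, -0.05 and -0.41 for C2 and 0.08 and -0.16 for C3. A alone was high, with -1.49 ± 0.21 (limma adjusted p = 0.00194) for B minus A and -2.02 ± 0.21 (limma adjusted p = 0.000673) for C1 minus A. Dcc, the attractive netrin receptor, is no member and was at the floor in 9 of 10 libraries, at 1.81 normalized reads in the other.

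Genes that act with the members were counted from lists. Of all tested genes 14.5% rose and 12.4% fell from A to B, 12.6% and 21.1% from B to C1, 12.2% and 8.18% from C1 to C2, and 11.6% and 16.2% from C2 to C3, and several of the counts lie near these shares. Of 13 tested partners of the receptors 2 rose and 5 fell from A to B, 5 rose and 5 fell from B to C1, 5 rose and 3 fell from C1 to C2, and 2 rose and 3 fell from C2 to C3. Nrcam, an adhesion molecule of neuropilin complexes, was among those higher in B, at 1409 and 1504 normalized reads against 35.3 and 141 in A and 1 to 8.71 in the cultures. Kdr, a receptor of vascular growth factor that works with neuropilins, had 214 and 198 in B and 1 and 3.83 in A. Of 36 tested mediators inside the cell 5 rose and 11 fell from A to B, 11 rose and 5 fell from B to C1, 9 rose and 5 fell from C1 to C2, and 4 rose and 7 fell from C2 to C3. Dpysl5, of the collapsin response family that acts below Sema3a, was at the floor in both A libraries and had 9.18 and 9.05 normalized reads in B, 67.6 and 53.4 for C1, 40.8 and 38.2 for C2 and 172 and 178 for C3. Both C3 libraries exceeded all others, and Sema3a was high in the same libraries and in C2. Other genes of that family took other courses. Crmp1 rose from B to C1 like Sema3a, but fell from C1 to C2, where Sema3a rose. Dpysl2, Dpysl3 and Dpysl4 were lower in C1 than in A, where Sema3a was higher. A link to Sema3a was not tested.

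The pairs of a ligand and its receptor given here were picked from many, and some shared their highest type while others did not. By the highest mean, Efna5 and its receptor Epha3 were both highest in C2, but the values of Efna5 in C2 and C3 overlapped. Efnb1 and Ephb2, a receptor of B class ephrins, were both highest in A. Sema7a was highest in A and its receptor Plxnc1 in B, and Sema4d was highest in B and its receptor Plxnb1 in A and C2. Slit1 was highest in B and Robo1 in A, while Slit2, like Robo1 and Robo2, was highest in A. Sema3a was highest in C2 and Nrp1 in B, Sema3e in C3 and Plxnd1 in B, and Sema3f in C1 and Nrp2 in B. Sema5a was highest in A and Plxnb3 in C3, and Efnb2 in C2 and Ephb4 in A. Sema6a was highest in C1, Plxna2 in B and Plxna4 in C3. Epha7, also a receptor of Efna5, was highest in A. Among ligands as a whole, of 32 tested 3 rose and 13 fell from A to B and 12 rose and 2 fell from C1 to C2, and of 25 receptors 6 rose and 10 fell and then 6 rose and 4 fell. The shares over all genes were 14.5% and 12.4% in the first step and 12.2% and 8.18% in the second. The difference between ligands and receptors was not tested.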

How the data were processed

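The members and gene lists were chosen with earlier results of these data known. TopHat, DESeq and the build mm10 are named, without version or role, per the submitters' processing notes, with the counting method not given in the sources used here. Log2 values were deposited for 36172 genes, each with its median over the libraries at 0, and their reading as normalized reads is inferred from the values. Of these genes 18334 were 0 in every library, and 17 with a damaged cell were left out. Libraries were assigned to types by their titles. Because only 32.9% to 70.6% of low values in a library were whole reads within 0.01, no count test was run.

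Genes of known level were kept where 2 libraries reached 10 normalized reads, and all those of unknown level were kept, which left 14254. With limma 3.58.1 (R 4.3.3) a mean was fitted for every type to the deposited log2 values of all 10 libraries, which leaves 5 residual degrees of freedom, and empirical Bayes moderation without a trend was applied. Tests were two-sided with Benjamini-Hochberg adjustment over all tested genes within a comparison, and the procedure was tested on simulated data. A call needed an adjusted p under 0.05 and a log2 difference of at least 1. In every family up to 6 called members, by their largest called difference, are given with all 10 libraries, and others with fewer values. Alternatives were another filter on low values, library medians or quantile normalization, robust moderation, the compared types alone, no minimum difference, a replicate block and 1 library left out. Coordinates come from RefSeq (GRCm38.p6), and exon lengths and overlaps from GENCODE M21.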

Additional observations from a re-analysis of the deposited data

How the results depend on the processing

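All 173 called differences of the members kept their direction in every alternative run that tested them, and 110 kept their call in each of these. The stricter filter, at 50 normalized reads, tested 168 of them. For Sema4a in B minus A the value under quantile normalization was 0.004, so that its direction there says little. Of the calls 50 were lost in at least 1 of 10 fits that left out a library, 28 in fits on the compared types alone, 14 under quantile normalization and 13 with no filter on low values. Left-out libraries moved the number of members called, from 32 to between 22 and 37 for B minus A, from 29 to 24 to 33 for C1 minus B, from 29 to 22 to 38 for C1 minus A, from 24 to 16 to 30 for C2 minus C1, from 30 to 21 to 36 for C3 minus C2 and from 29 to 21 to 29 for C3 minus C1. A fit on A and C1 alone lowered the count for C1 minus A to 17, where the fit has 4 libraries in place of 10. Over all tested genes quantile normalization moved the share of higher calls from 37.4% to 50.6% in C1 minus B, from 37.7% to 51.3% in C1 minus A, from 59.9% to 49.2% in C2 minus C1 and from 41.7% to 52.7% in C3 minus C2. Where a type keeps 1 library, it is assumed to vary like the others.

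Replicate numbers did not pair the samples, since the deviations of libraries of the same number correlated by -0.041 to 0.060. With a replicate block the counts were 32, 29, 29, 25, 30 and 26 in the order above, and 8 of the 173 calls were lost. Levels rest on the inferred scale, and a count of 0 allows up to 6.88 normalized reads in the shallowest library.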

Other observations

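The gene of the sorting marker c-kit, Kit, did not follow the labels in every library. A replicate 1, labelled c-kit+, had 3.36 normalized reads of Kit, within the 5.04 that a count of 0 allows there, and A replicate 2 had 72.3. The B libraries, also labelled c-kit+, had 22.9 and 12.7, and those of C1 had 35.3 and 66.4. In C2 and C3, labelled c-kit-, no library exceeded 3.11.

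Markers of other cells of the heart were low where their level is known. Those of Schwann cells (7 genes of known level) summed to 189 and 179 normalized reads in B and to at most 83.0 in any other library. Those of smooth muscle and pericytes (3 of 8 listed genes) summed to at most 107, in B replicate 2. For Acta2, Myh11, Tagln, Smtn and Notch3 of that list the level is unknown, so the sum does not cover them. Markers of heart muscle cells (6 of 8 listed genes) summed to at most 56.8, in C3 replicate 1. Of the rest of that list, Myh6 was listed at 0 everywhere and Tnnt2 is of unknown level.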
